A study of Mus musculus with 36 samples.

Results

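The genes described here are 9 heat shock chaperones of the cytosol and mitochondria and the transcription factor Hsf1, 10 genes of 37061 on the array. They are Hspa1a, Hspa1b, Hspa8, Hspb1, Hsp90aa1, Hsph1, Dnajb1, Hspd1, Hspe1 and Hsf1. They were found by their gene symbol in the array files, which gave 20 of 56605 probes. All 10 genes passed the filter on dim probes, each through 1 or more probes well above background on all 36 arrays. The list was chosen by symbols picked with results of these arrays in view, chiefly the lower signal of Hspa1a after CL316243 in CTRL mice. That comparison is therefore given as a description with no test. Comparisons that hold its CTRL fed or its CTRL CL316243 arrays are not independent of the choice, and for Hspa1a those with the CTRL CL316243 arrays are also given with no test.

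Heat shock proteins are chaperones: they bind unfolded or partly folded proteins, keep them from clumping and help them fold. HSP70 proteins bind short stretches of a client and release them in a cycle driven by ATP, J-domain proteins such as Dnajb1 start that cycle, HSP110 proteins such as Hsph1 reset it by exchanging the nucleotide, and HSP90 proteins act on clients that are nearly folded. HSF1 is held inactive in resting cells and, when freed and joined into a trimer, binds repeats of GAA and TTC letters in the promoters of these genes. In liver their transcripts also follow feeding time and body temperature over the day.

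RNA was measured in the livers of male C57Bl/6J mice on 36 one-colour Agilent arrays, 6 for each of 6 groups. The labels do not say that each array is a separate mouse, so p-values measure the spread between these samples. In AAKO mice white adipose tissue is without ATGL, the product of Pnpla2 and the first enzyme of fat breakdown, and CTRL mice are their controls. Each genotype was fed freely, fasted for 24 h, or fed and gavaged once with CL316243 at 3 mg/kg in carboxymethyl cellulose at Zeitgeber time (ZT) 10. CL316243 acts on beta 3 adrenergic receptors and sets off fat breakdown in adipocytes. Livers were taken at ZT 16, after lights went off. The promoter that drives the deletion and the age of the mice are not given in the sources used here. A deletion in adipose tissue cannot be checked on liver arrays. The labels place both fed groups in experiment 2 and all 4 others in experiment 1, so feeding state and experiment cannot be told apart in any comparison with fed mice. The labels mention no gavage of the fed or fasted groups.

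Between 33128 and 37200 probes were well above background on each array. All 7 of 8 hepatocyte markers that the array held were well above background in every group, with a summed level between 12.20 and 12.66. Values are log2 signals after the array's own 75th percentile was subtracted, so that 0 is the brightness of that percentile and 1 unit is a doubling. A gene is called at an adjusted p under 0.05 in the limma fit over 24096 genes. CTRL fasted replicate 2 stood apart from its group on the first principal component, which held 41.9% of the variance (CTRL fasted arrays from 16.7 to 80.9, this array the highest, and AAKO fasted arrays from 102 to 110). Member results that rest on the CTRL fasted group are given with and without it. These are whole livers, in which fewer cells of a type and less RNA per cell cannot be told apart.

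Promoter letters are shown first because 2 pairs of members stand beside each other in the genome and the genes of each pair are later set against one another. Hspa1a and Hspa1b lie on chromosome 17 with 0 genes between them in the RefSeq table, and encode near-identical inducible HSP70 proteins. The 250 bases before their start sites, from RefSeq on GRCm38.p6, minus strand, differ at 3 positions (98.8% identical). Capitals mark the letters GAANNTTC or TTCNNGAA, 2 facing repeats of a heat shock element, where N is any base.
Hspa1a, chr17:34972157-34972406: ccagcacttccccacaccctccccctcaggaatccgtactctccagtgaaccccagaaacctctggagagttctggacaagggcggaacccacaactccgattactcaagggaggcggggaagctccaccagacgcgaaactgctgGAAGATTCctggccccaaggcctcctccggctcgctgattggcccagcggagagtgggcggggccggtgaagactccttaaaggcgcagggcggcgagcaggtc
Hspa1b, chr17:34959239-34959488: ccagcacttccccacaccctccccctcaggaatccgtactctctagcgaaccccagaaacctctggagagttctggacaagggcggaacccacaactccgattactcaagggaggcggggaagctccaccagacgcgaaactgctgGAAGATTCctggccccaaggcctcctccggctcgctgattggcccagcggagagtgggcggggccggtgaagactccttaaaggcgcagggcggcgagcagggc
The match lies 97 to 104 bases before the start site in both genes.

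Of 32851 promoters of this length in the table, 12.8% held GAANNTTC or TTCNNGAA, searched on both strands (each motif is its own reverse complement). The longer GAANNTTCNNGAA or its reverse complement TTCNNGAANNTTC, which holds both short ones, was in 0.466%. The table held windows for 7 of the 10 members: Hspa1a, Hspa1b, Hspb1, Hsph1, Dnajb1, Hspd1 and Hspe1. The short motif was in a window of each of these but Dnajb1, whose 2 windows had 0 matches, and the longer motif was in windows of Hspe1 and Hspd1. Hspd1 and Hspe1, the mitochondrial chaperonin and its lid, lie head to head on chromosome 1 with 0 genes between them, and the same stretch fell in a window of each. The stretches of 30 bases around the matches, each on the strand of its gene, were as follows.
Hspe1, chr1:55088053-55088082, plus strand: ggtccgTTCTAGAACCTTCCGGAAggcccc
Hspb1, chr5:135887791-135887820, plus strand: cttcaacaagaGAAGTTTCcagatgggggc
Hspb1, chr5:135887811-135887840, plus strand: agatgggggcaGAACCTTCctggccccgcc
Hsph1, chr5:149636351-149636380, minus strand: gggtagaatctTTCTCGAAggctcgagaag
These matches are letters in a window and say nothing of what binds there.

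**Figure D1:**
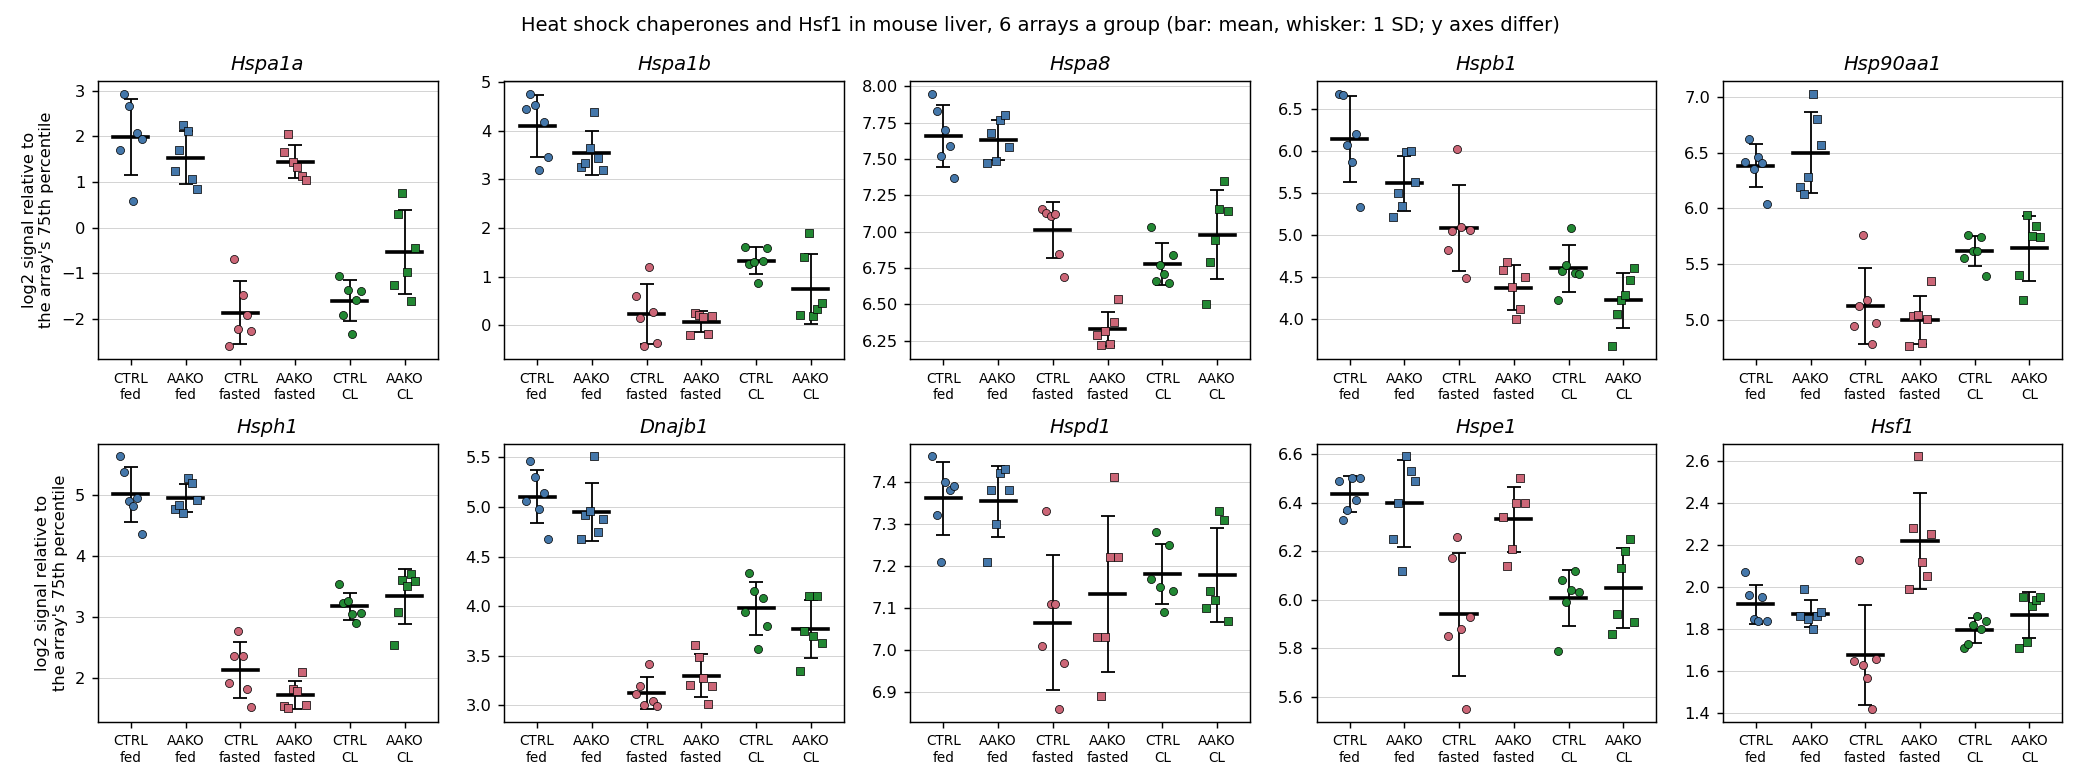
Signal of the brightest probe of each of the 10 genes on every array (y axis: log2 signal relative to the array's 75th percentile, with a scale of its own in each panel), for 6 groups of 6 arrays; bars are means and whiskers 1 SD. In the Hspa1a panel the AAKO fasted arrays, from 1.05 to 2.05, sit above the CTRL fasted arrays, from -2.61 to -0.70, while in the Hspa1b panel both fasted groups sit below the fed groups.

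The inducible HSP70 genes were compared first between fasted and fed mice. In CTRL mice the Hspa1a signal ran from 0.58 through a median of 2.01 to 2.94 when fed, and from -2.61 through -2.07 to -0.70 when fasted. Hspa1b ran from 3.20 through 4.32 to 4.76 when fed and from -0.43 through 0.22 to 1.20 when fasted. Every fasted CTRL array lay below every fed one for both genes. Hspa1a was 14.5-fold lower after the fast (log2 fold change -3.86, standard error 0.38, adjusted p = 8e-10) and -4.08 without CTRL fasted replicate 2. Hspa1b was lower by the same 14.5-fold (-3.86, standard error 0.29, adjusted p = 3.6e-12; -3.83 without that replicate). The CTRL fed arrays were among those known when the members were picked, so the p-value of Hspa1a is not independent of that choice.

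In AAKO mice the same genes parted. Hspa1b was again low, with values from 3.20 through 3.38 to 4.39 when fed and from -0.20 through 0.19 to 0.26 when fasted, 11-fold lower with no overlap (log2 fold change -3.47, standard error 0.29, adjusted p = 5.86e-12). Hspa1a ran from 0.84 through 1.47 to 2.26 when fed and from 1.05 through 1.39 to 2.05 when fasted, so the fasted range lay inside the fed one. Its log2 fold change was -0.09 (standard error 0.38, adjusted p = 0.849). Within wash batches 1 and 2, which the labels name and which each hold arrays of every group, that value was -0.30 and 0.12.

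The partners of HSP70 were lower after fasting in both genotypes. Hsph1, the HSP110 exchange factor, ran from 4.36 through 4.94 to 5.64 in CTRL fed and from 1.53 through 2.14 to 2.78 in CTRL fasted. In AAKO it ran from 4.71 through 4.89 to 5.28 when fed and from 1.51 through 1.68 to 2.10 when fasted. The fasted arrays lay below the fed ones in each genotype, by 7.38-fold in CTRL (-2.88, standard error 0.20, adjusted p = 7.64e-13) and by 9.41-fold in AAKO (-3.23, standard error 0.20, adjusted p = 7.72e-15). A second probe gave -2.87 in CTRL and -3.30 in AAKO, and the third was not well above background on any AAKO fasted array, so its value there is only a bound. Dnajb1, the J-domain protein that hands clients to HSP70, ran from 4.68 through 5.10 to 5.46 in CTRL fed and from 2.99 through 3.07 to 3.42 in CTRL fasted. It ran from 4.68 through 4.90 to 5.51 in AAKO fed and from 3.01 through 3.24 to 3.61 in AAKO fasted. Its fasted and fed arrays did not overlap in either genotype, and it was 3.94-fold lower in CTRL (-1.98, standard error 0.15) and 3.14-fold lower in AAKO (-1.65, standard error 0.15), with adjusted p = 1.88e-12 and 1.57e-11.

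Hspa8, the HSP70 protein that cells make at all times, and Hsp90aa1, the inducible cytosolic HSP90, changed by less. Hspa8 ran from 7.37 through 7.65 to 7.95 in CTRL fed, from 6.69 through 7.12 to 7.16 in CTRL fasted, from 7.47 through 7.63 to 7.80 in AAKO fed and from 6.22 through 6.30 to 6.54 in AAKO fasted. The 4 ranges stepped down from fed to CTRL fasted to AAKO fasted, with no overlap between these 3 levels. Hspa8 was 1.57-fold lower after fasting in CTRL (-0.65, standard error 0.11, adjusted p = 1.65e-05) and 2.47-fold lower in AAKO (-1.30, standard error 0.11, adjusted p = 1.09e-11). All 4 Hspa8 probes were lower, by -0.94 to -0.65 in CTRL and by -1.64 to -1.30 in AAKO. Hsp90aa1 ran from 6.04 through 6.42 to 6.62 in CTRL fed and from 4.78 through 5.05 to 5.76 in CTRL fasted. In AAKO it ran from 6.13 through 6.42 to 7.03 when fed and from 4.76 through 5.02 to 5.35 when fasted. Neither pair of ranges overlapped, and Hsp90aa1 was lower by 2.39-fold in CTRL (-1.26, standard error 0.15, adjusted p = 2.76e-08) and by 2.83-fold in AAKO (-1.50, standard error 0.15, adjusted p = 1.88e-10). A second probe gave -1.38 and -1.57, and the third Hsp90aa1 probe, designed on an expressed sequence tag, was well above background on 1 of 36 arrays and was not used.

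Hspb1 encodes HSP27, a small heat shock protein that holds unfolded proteins without using ATP. It ran from 5.34 through 6.13 to 6.68 in CTRL fed, from 4.49 through 5.06 to 6.02 in CTRL fasted, from 5.22 through 5.56 to 6.00 in AAKO fed and from 4.00 through 4.44 to 4.68 in AAKO fasted. The ranges overlapped in CTRL and not in AAKO. Hspb1 was 2.06-fold lower after fasting in CTRL (-1.05, standard error 0.21, adjusted p = 0.000126) and 2.36-fold lower in AAKO (-1.24, standard error 0.21, adjusted p = 5.38e-06).

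The mitochondrial chaperonin has a ring and a lid. Hspd1, which encodes the HSP60 ring, ran from 7.21 through 7.38 to 7.46 in CTRL fed and from 6.86 through 7.06 to 7.33 in CTRL fasted, and from 7.21 through 7.38 to 7.43 and from 6.89 through 7.12 to 7.41 in AAKO. These ranges overlapped, and the fall was 1.23-fold in CTRL (-0.29, standard error 0.07, adjusted p = 0.00145) and 1.16-fold in AAKO (-0.22, adjusted p = 0.00978). The AAKO value did not pass with quantile normalization (-0.04, adjusted p = 0.561) or in the authors' value table (-0.04, adjusted p = 0.547). Hspe1, which encodes the HSP10 lid of that ring, ran from 6.33 through 6.45 to 6.50 in CTRL fed and from 5.55 through 5.91 to 6.26 in CTRL fasted, without overlap. It was 1.41-fold lower there (-0.49, standard error 0.10, adjusted p = 9.4e-05). In AAKO it ran from 6.12 through 6.45 to 6.59 when fed and from 6.14 through 6.37 to 6.50 when fasted, with a log2 fold change of -0.07 (standard error 0.10, adjusted p = 0.565).

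Hsf1, the factor itself, went in opposite directions. It ran from 1.84 through 1.90 to 2.07 in CTRL fed and from 1.42 through 1.64 to 2.13 in CTRL fasted, where replicate 2 was the highest array. In AAKO it ran from 1.80 through 1.86 to 1.99 when fed and from 1.99 through 2.18 to 2.62 when fasted. Hsf1 was 1.18-fold lower after fasting in CTRL (-0.24, standard error 0.09, adjusted p = 0.0324; -0.33 and adjusted p = 0.000963 without replicate 2) and 1.27-fold higher in AAKO (0.35, standard error 0.09, adjusted p = 0.00133). The CTRL call did not hold in the authors' value table (-0.14, adjusted p = 0.217) nor with quantile normalization (-0.19, adjusted p = 0.0857), and it was lost when CTRL fasted replicate 1, 3, 4, 5 or 6 or CTRL fed replicate 1, 2 or 5 was left out (adjusted p between 0.0518 and 0.102). It was also lost with normexp (adjusted p = 0.0616), with no filter on dim probes (0.0544) and with only the groups compared (0.0879). Within wash batches 1 and 2 the CTRL value was -0.31 and -0.17 (adjusted p = 0.0516 and 0.352). The AAKO call did not hold within wash batch 2 (0.14, adjusted p = 0.377), which has 3 arrays a group.

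In all, 10 of 10 members were called lower in fasted than in fed CTRL mice, where 43.8% of genes tested were called and 24.1% were called lower. Their median log2 fold change was -1.15, against -0.05 over all genes tested. This comparison shares its CTRL fed arrays with the one on which members were picked. The count was 9 with normexp, quantile normalization, the authors' value table, no filter on dim probes or only the groups compared. It was 9 within wash batch 1 and 8 within wash batch 2. Without CTRL fasted replicate 2 all 10 were still called lower, with Hsph1 at -2.92, Dnajb1 at -2.0, Hsp90aa1 at -1.27, Hspb1 at -1.06, Hspa8 at -0.67, Hspe1 at -0.53 and Hspd1 at -0.34. In AAKO mice 8 of 10 were called, 7 lower and Hsf1 higher, where 63.6% of genes were called, 36.1% lower and 27.5% higher, and the medians were -1.27 for the members and -0.10 for all genes. Markers of cell types moved in the same comparisons. Of 8 Kupffer cell and macrophage markers 2 were lower in CTRL, with summed levels from 5.27 to 6.96 when fasted against 5.81 to 7.01 when fed, and 4 were lower in AAKO, from 4.61 to 6.89 against 6.51 to 7.33. Of 6 stellate cell and fibroblast markers 2 were higher and 1 lower in each genotype, with summed levels from 6.41 to 6.73 against 6.0 to 6.43 in CTRL and, without overlap, from 6.79 to 7.21 against 6.04 to 6.38 in AAKO. Of 7 hepatocyte markers 4 were lower and 1 higher in AAKO fasted mice, and their summed levels did not overlap either (12.20 to 12.28 against 12.34 to 12.51). Of 9 neutrophil markers 4 were higher and 1 lower in AAKO fasted than in AAKO fed mice, with overlapping summed levels from 3.52 to 7.0 against 1.92 to 5.66. The part of these cells in the member values was not tested.

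**Figure D2:**
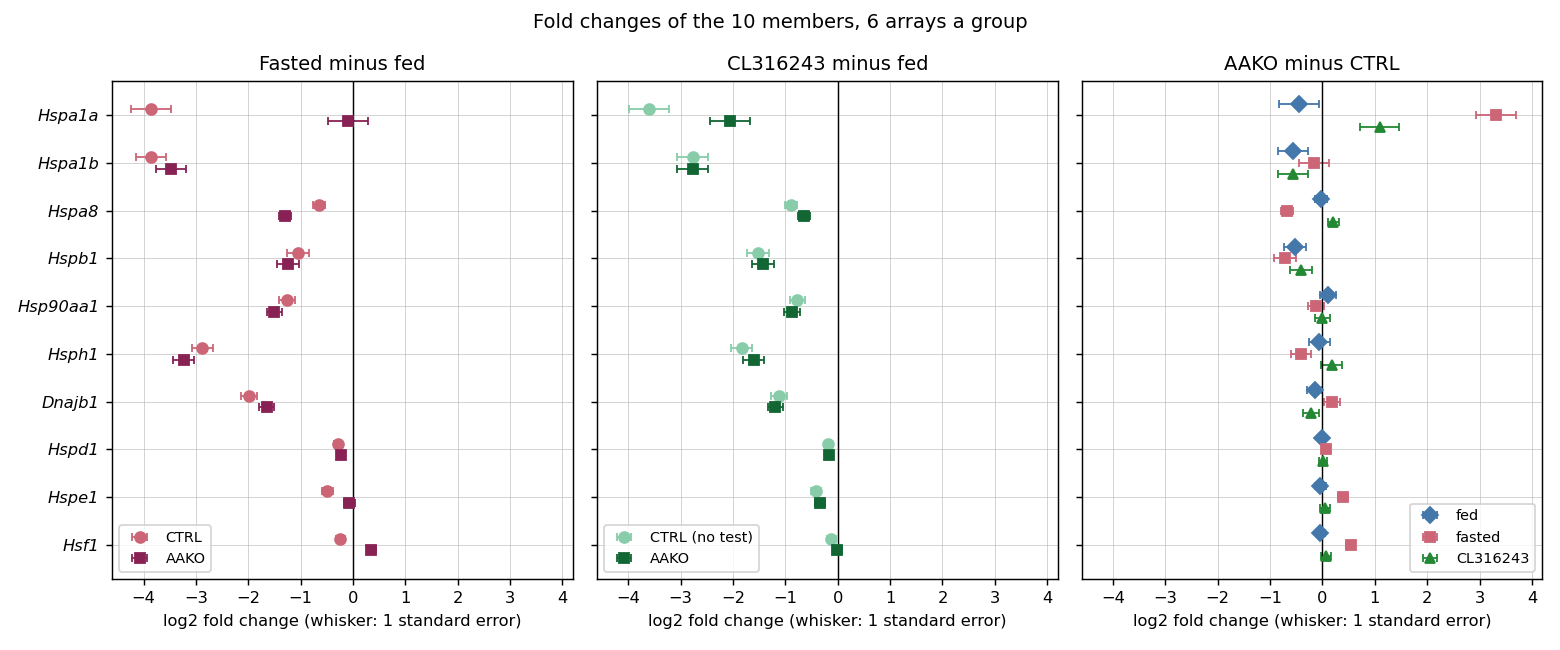
Log2 fold change of each member with 1 standard error (x axis) from 1 fit over 36 arrays, for fasted minus fed, CL316243 minus fed, and AAKO minus CTRL; the CTRL values after CL316243 are a description only. The fasting value of Hspa1a is -3.86 in CTRL and -0.09 in AAKO, and the AAKO minus CTRL value of Hspa1a in fasted mice is 3.32.

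CL316243 was given to ask how liver responds when fat breakdown is set off in fed mice. In CTRL mice, the comparison known when the members were picked, all 10 members had lower means after CL316243 than when fed. Hspa1a ran from -2.33 through -1.49 to -1.07 after the agonist and was 12.1-fold lower (-3.60, standard error 0.38). Hspa1b ran from 0.87 through 1.32 to 1.62 and was 6.81-fold lower (-2.77). The next lower were Hsph1 at 3.56-fold (-1.83), Hspb1 at 2.89-fold (-1.53), Dnajb1 at 2.18-fold (-1.12), Hspa8 at 1.85-fold (-0.89) and Hsp90aa1 at 1.71-fold (-0.77). Hspe1 (-0.42), Hspd1 (-0.18) and Hsf1 (-0.12) stood closest to 0. Of all genes tested 12.7% were called lower there, from which nothing is read about the members.

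In AAKO mice, on arrays that the CTRL comparison does not hold, 8 of 10 were called lower after CL316243, where 31.4% of genes were called and 15.9% were called lower. The members were chosen with earlier results of these data known, so this count is not taken as independent of the choice. The medians were -1.04 for the members and -0.01 for all genes. Hspa1b ran from 0.20 through 0.40 to 1.89 and was 6.83-fold lower than in AAKO fed mice (-2.77, standard error 0.29, adjusted p = 1.57e-08), without overlap. Hspa1a ran from -1.61 through -0.72 to 0.76, below all AAKO fed arrays, and was 4.15-fold lower (-2.05, standard error 0.38, adjusted p = 8.4e-05). Its spread was wide, with an SD of 0.92 over 6 arrays. Within wash batch 2, which has 2 AAKO arrays with CL316243, Hspa1a was at -1.37 (adjusted p = 0.11).

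The other members called lower in AAKO after CL316243 ranged from Hsph1 to Hspe1. Hsph1 ran from 2.54 through 3.56 to 3.71 (3.03-fold lower, -1.60, adjusted p = 3.49e-07) and Hspb1 from 3.68 through 4.26 to 4.61 (2.68-fold lower, -1.42, adjusted p = 4.16e-06). Dnajb1 ran from 3.35 through 3.72 to 4.10 (2.29-fold lower, -1.19, adjusted p = 2.04e-07), Hsp90aa1 from 5.18 through 5.75 to 5.94 (1.84-fold lower, -0.88, adjusted p = 2.63e-05) and Hspa8 from 6.50 through 7.04 to 7.35 (1.56-fold lower, -0.64, adjusted p = 4.88e-05). Each of these ranges lay below the AAKO fed range of its gene, and the share of all genes without overlap was not computed. Hspe1 was 1.27-fold lower with overlapping ranges (-0.34, adjusted p = 0.00711). Hspd1 (-0.16, adjusted p = 0.0913) and Hsf1 (-0.01, adjusted p = 0.968) did not pass. Kupffer cell and macrophage markers were lower for 7 of 8 genes in this comparison, with summed levels from 5.70 to 6.32 after CL316243 against 6.51 to 7.33 when fed. Endothelial markers were lower for 3 of 6 genes, also without overlap of the summed levels (5.16 to 5.72 against 5.81 to 6.09), and stellate cell and fibroblast markers for 3 of 6 (5.55 to 6.23 against 6.04 to 6.38). The part of these cells was not tested.

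Fasting and CL316243 can be compared within experiment 1. In CTRL mice this comparison holds the CL316243 arrays known when the members were picked. There 4 of 10 members were called, all lower in fasted mice, where 37.1% of genes were called and 19.3% were called lower. They were Hsph1 (2.07-fold, -1.05, adjusted p = 9.36e-05) and Dnajb1 (1.81-fold, -0.86, adjusted p = 1.82e-05), each without overlap, and Hspa1b (2.13-fold, -1.09, adjusted p = 0.00332) and Hsp90aa1 (1.40-fold, -0.49, adjusted p = 0.00933), each with overlap. Hspa1a was at -0.26 (standard error 0.38), and Hspa8 (0.23) and Hspb1 (0.49) lay above 0 without a call. Under other scalings both were called higher in fasted mice. Hspb1 passed with normexp (0.51, adjusted p = 0.047), quantile normalization (0.59, adjusted p = 0.0256) and the authors' value table (0.58, adjusted p = 0.0202). Hspa8 passed with quantile normalization (0.28, adjusted p = 0.0359) and in that table (0.29, adjusted p = 0.0346). Without CTRL fasted replicate 2 the same 4 were called (Hsph1 -1.09, Hspa1b -1.06, Dnajb1 -0.88 and Hsp90aa1 -0.50), and Hsf1 too (-0.21, adjusted p = 0.0392), with Hspa1a at -0.48, Hspb1 at 0.47 and Hspa8 at 0.22.

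In AAKO mice 8 of 10 members were called between fasting and CL316243, 3 higher in fasted mice and 5 lower, where 60.0% of genes were called, 25.9% higher and 34.1% lower. Hspa1a was 3.90-fold higher in fasted mice, with no overlap (1.96, standard error 0.38, adjusted p = 3.93e-05). Hsf1 was 1.28-fold higher, also with no overlap (0.35, adjusted p = 0.00127), and Hspe1 was 1.21-fold higher (0.27, adjusted p = 0.0155). Hsph1 was 3.11-fold lower in fasted mice (-1.64, adjusted p = 2.47e-08), followed in size by Hspa1b (1.62-fold, -0.69, adjusted p = 0.0411), Hspa8 (1.58-fold, -0.66, adjusted p = 7.3e-06), Hsp90aa1 (1.54-fold, -0.62, adjusted p = 0.000594) and Dnajb1 (1.38-fold, -0.46, adjusted p = 0.00734). The Hspa1b call did not hold in the authors' value table (-0.49, adjusted p = 0.12) and was lost when any of 5 single arrays was left out: AAKO CL316243 replicates 2 and 3 and AAKO fasted replicates 1, 4 and 5, with adjusted p between 0.0518 and 0.182.

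Genotypes were compared within each condition. In fed mice 0 of 10 members were called by limma, where 0.0789% of genes were called. The lowest value was Hspa1b at -0.56 (standard error 0.29, adjusted p = 0.763) and the highest Hsp90aa1 at 0.11. Over all genes 1637 had an unadjusted p under 0.05 in that comparison.

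In fasted mice 5 of 10 members were called between genotypes, 3 higher and 2 lower in AAKO, where 49.2% of genes were called, 21.9% higher and 27.3% lower. The share of members called is thus near that of all genes. Hspa1a had the largest value of the members: it was 9.97-fold higher in AAKO fasted than in CTRL fasted mice (3.32, standard error 0.38, adjusted p = 1.12e-08), and no AAKO array overlapped a CTRL one. The value was 3.54 without CTRL fasted replicate 2, 3.65 within wash batch 1 and 2.98 within wash batch 2. Hspa1b, on the same arrays, was at -0.16 (standard error 0.29, adjusted p = 0.676; -0.19 without that replicate). Hspa1a and Hspa1b each had 1 probe, so no further probe of either gene could be set beside these values.

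Hsf1 was 1.46-fold higher in AAKO fasted mice with ranges that overlapped through CTRL fasted replicate 2 (0.54, standard error 0.09, adjusted p = 9.21e-06; 0.64 without it). Within wash batches it was 0.81 and 0.27, and the latter did not pass (adjusted p = 0.124). The standard error is pooled over 6 groups. The Hsf1 SD was 0.24 in CTRL fasted and 0.23 in AAKO fasted mice, against 0.06 to 0.11 in the other groups. The pooled error is thus likely too small for Hsf1 in comparisons with fasted mice. Hspe1 was 1.31-fold higher (0.39, standard error 0.10, adjusted p = 0.00111), and its other 2 probes gave 0.38 and 0.40. Hspa8 was 1.60-fold lower with no overlap (-0.68, standard error 0.11, adjusted p = 7.24e-06), and its 4 probes ran from -0.81 to -0.66. Hspb1 was 1.64-fold lower with overlap (-0.71, standard error 0.21, adjusted p = 0.00521). Without CTRL fasted replicate 2 these 5 members were still called, with Hspe1 at 0.43, Hspa8 at -0.66 and Hspb1 at -0.70.

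The other members were not called between the fasted genotypes. Hsph1 was at -0.41 (adjusted p = 0.0937; -0.37 without CTRL fasted replicate 2), and passed with the mean of its 3 probes (-0.53, adjusted p = 0.0206) and without CTRL fasted replicate 6 (-0.52, adjusted p = 0.036). Dnajb1 was at 0.18, Hspd1 at 0.07 and Hsp90aa1 at -0.13 (0.20, 0.12 and -0.11 without that replicate). Markers of other cells moved in this comparison: 4 of 9 neutrophil markers were higher in AAKO fasted mice, with summed levels from 3.52 to 7.0 against 1.79 to 6.37 in CTRL fasted. For stellate cells and fibroblasts 2 of 6 were higher, with summed levels from 6.79 to 7.21 against 6.41 to 6.73, and for endothelial cells 3 of 6, with 5.63 to 5.98 against 4.84 to 5.95. Of 7 hepatocyte markers 4 were lower and 1 higher, with 12.20 to 12.28 against 12.22 to 12.43. Their part in the member values was not tested.

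After CL316243 the AAKO arrays were set against the CTRL CL316243 arrays on which the low Hspa1a signal was known, so the Hspa1a value is a description. Hspa1a was 2.14-fold higher in AAKO with overlapping ranges (1.09, standard error 0.38), 1.19 and 1.17 within wash batches, and 0.70 with normexp background correction. The other 9 members did not pass, where 24.6% of genes were called, and ran from Hspa1b at -0.56 (adjusted p = 0.169) to Hspa8 at 0.21 (adjusted p = 0.175).

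The genotype difference itself was then compared between conditions, so that an experiment effect common to both genotypes cancels. Between fasted and fed mice it differed for 4 of 10 members, 3 higher and 1 lower, where 33.6% of genes were called, 15.0% higher and 18.6% lower. The CTRL fed arrays in this comparison are among those known when the members were picked. Hspa1a had a difference of 3.77 (standard error 0.53, adjusted p = 1.93e-06), or 13.6-fold, and 3.99 without CTRL fasted replicate 2. Hsf1 (0.59, standard error 0.13, adjusted p = 0.000606) and Hspe1 (0.42, standard error 0.14, adjusted p = 0.0153) were higher as well, and Hspa8 was lower (-0.65, standard error 0.16, adjusted p = 0.00179). Without CTRL fasted replicate 2 they were at 0.68, 0.47 and -0.63 and still called. Within wash batches the Hspa1a value was 3.90 and 3.63, with adjusted p = 0.00297 and 0.00454. Each of the other 3 genes did not pass within 1 wash batch: batch 2 for Hsf1 (0.31), and batch 1 for Hspe1 (0.32) and Hspa8 (-0.53). Hspb1 (-0.19), Hsp90aa1 (-0.24), Hsph1 (-0.35), Dnajb1 (0.33), Hspd1 (0.07) and Hspa1b (0.39) did not pass, nor did they without that replicate (-0.18, -0.23, -0.31, 0.35, 0.12 and 0.37 in the same order).

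Between fasted and CL316243 mice, all of experiment 1, the genotype difference again holds the CTRL CL316243 arrays known when the members were picked. For Hspa1a it is a description: 2.22 (standard error 0.53), 2.46 without CTRL fasted replicate 2 and 1.82 within wash batch 2. Of all genes 31.8% were called, 13.3% higher and 18.5% lower. Among the other members it was called for Hsf1 (0.47, standard error 0.13, adjusted p = 0.00543; 0.57 without that replicate) and Hspa8 (-0.89, standard error 0.16, adjusted p = 6.06e-05; -0.88 without it). Within wash batch 2 the Hsf1 value did not pass (0.24, adjusted p = 0.456). Hspe1 lay just outside the threshold (0.34, adjusted p = 0.0557) and passed without CTRL fasted replicate 2 (0.39, adjusted p = 0.0275). For CL316243 against fed mice, which holds both CTRL groups of the comparison known at the choice, the difference is a description for every member: 1.55 for Hspa1a (standard error 0.53) and between -0.11 and 0.24 for the others.

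Hspa1a and Hspa1b were set side by side on each array, since the promoters printed above differ at 3 of 250 positions. Each gene had 1 probe on the array. The 60-base probes share no stretch longer than 5 letters, and their first 30 bases were as follows.
Hspa1a probe, chr17:35106766-35106825 on mm9, minus strand: agggaaactaaactgtctttcagttacttt
Hspa1b probe, chr17:35093374-35093405 on mm9, minus strand: taatctaagtaggttaaagatggtgtagtc
The listed span of the Hspa1b probe is shorter than the probe, and where in the transcript either probe lies was not analysed here. The log2 signal of Hspa1a minus that of Hspa1b ran from -3.22 to -0.86 in CTRL fasted and from 0.85 to 1.88 in AAKO fasted mice. In fed mice the same difference ran from -2.75 to -1.52 in CTRL and from -2.37 to -1.38 in AAKO. After CL316243 it ran from -3.20 to -2.68 in CTRL and from -1.95 to -0.92 in AAKO. In this difference the genotypes overlapped when fed and not in the other conditions. The values after CL316243 hold the CTRL arrays known when the members were picked, and Hspa1a alone overlapped between genotypes there. The share of all gene pairs without overlap was not computed, so these ranges are a description.

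The mean difference between genotypes in that quantity was 3.48 when fasted (3.73 without CTRL fasted replicate 2, the highest CTRL fasted array), 1.65 after CL316243 and 0.11 when fed. For Hspe1 minus Hspd1, whose start sites face each other, the genotype difference was 0.32 in fasted mice (0.31 without that replicate), 0.04 after CL316243 and -0.03 in fed mice. Fasted AAKO arrays ran from -0.91 to -0.69 for this pair and fasted CTRL arrays from -1.31 to -0.85, with overlap. The pairs were chosen after their values had been seen, so these differences carry no test.

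**Figure D3:**
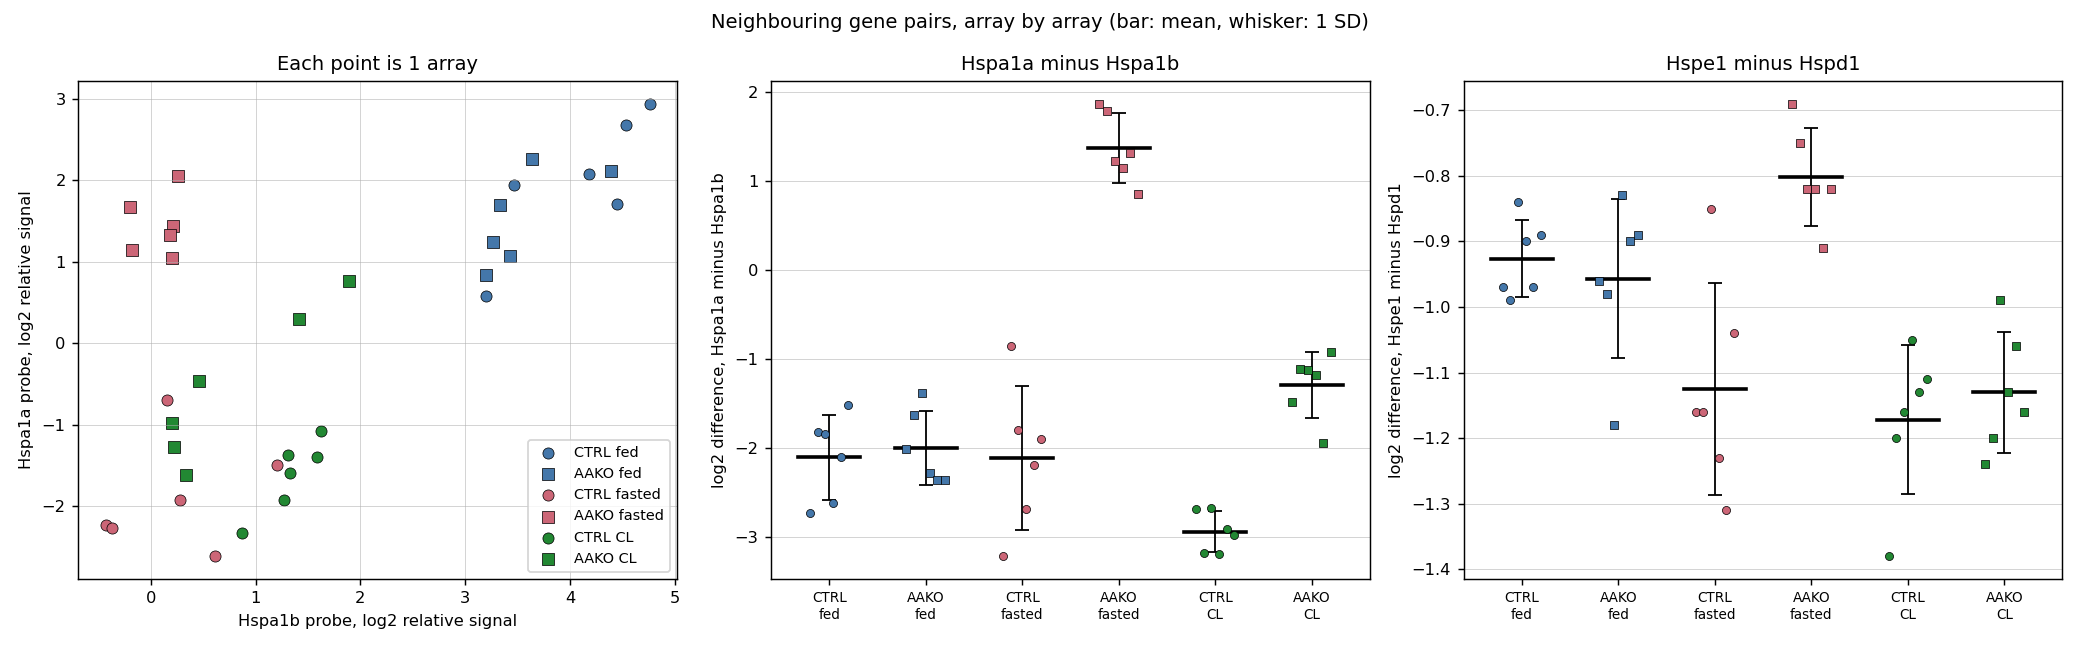
Left: Hspa1a against Hspa1b log2 signal, 1 point per array; middle and right: log2 difference between the 2 probes on each array for Hspa1a minus Hspa1b and for Hspe1 minus Hspd1, with the mean (bar) and 1 SD (whisker) of 6 arrays. The AAKO fasted arrays form a group of their own at the upper left, with differences of 0.85 to 1.88, where all other arrays lie below 0.

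Members also varied among arrays of one group. The SD within groups was 0.68 for Hspa1a, larger than for 95.7% of genes tested, and 0.52 for Hspa1b, larger than for 89.3%. It was 0.12 for Hspd1 and 0.15 for Hsf1, larger than for 11.8% and 24.8%, with a median over all genes of 0.23. After group means and wash batch were removed, 38 of 45 member pairs correlated above 0 over 36 arrays and 10 above 0.5, with a median r of 0.29. These are descriptions over arrays that share scaling to 1 percentile. The share of all gene pairs above 0 or 0.5 was not computed, so nothing about the members is read from these counts. The highest correlations were Hspa8 with Hsph1 (r = 0.80), Hspd1 with Hspe1 (0.74), Hsp90aa1 with Hsph1 (0.73), Hspb1 with Hsph1 (0.71) and Hspa1a with Hspa1b (0.69). They did not hold within every group of 6 arrays: Hspb1 with Hsph1 was at -0.80 in AAKO fasted and -0.56 in CTRL CL316243, Hsp90aa1 with Hsph1 at -0.10 and -0.17 in the same groups, Hspa8 with Hsph1 at 0.07 in AAKO fasted, and Hspa1a with Hspa1b at 0.16 in AAKO fasted and 0.22 in CTRL fasted. Hspd1 with Hspe1 ran from 0.37 to 0.95 over the 6 groups. Hsf1 had a highest r of 0.30 with any other member.

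Outside the list, the genes most like Hspa1a in these deviations among 24055 ranked were Dll1 (r = 0.71), Zyx (0.69), Slc25a29 (0.68), Llgl1 (0.67) and Ppargc1b (0.67). For Hspa8 they were 3 probes named by transcript identifiers, led by ENSMUST00000190879 (r = 0.89), and a probe named NAP058885-1 (0.74) and Ube2f (0.72). For Hspd1 they were AV310571 (r = 0.93), Eif5a (0.85), the probe named ENSMUST00000051437 (0.85), Rwdd4a (0.84) and Timm23 (0.80), the last a channel subunit for protein import into mitochondria. These were selected on the size of r and carry no test.

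Other chaperone genes were read in lists drawn up by family, beside the shares of all genes. After fasting 24.1% of genes fell in CTRL, where 43.8% were called and 45% of those called were higher. In AAKO 36.1% fell and 27.5% rose, and between fasted genotypes 21.9% were higher and 27.3% lower in AAKO. Counts near these shares are not read as results about a list. Without CTRL fasted replicate 2, all 53 list genes called for fasting in CTRL and all 43 called between fasted genotypes were still called, with moves of at most 0.30 and 0.36, and 2 and 3 more were called. No list gene called below changed sign with normexp, quantile normalization, the authors' value table or without CTRL fasted replicate 2. Of 10 genes of HSP90 and its cochaperones, 9 fell and 1 rose after fasting in each genotype, with medians of -0.57 in CTRL and -0.94 in AAKO. Chordc1 (-2.29 and -2.88), Fkbp4 (-1.68 and -2.44), a cochaperone of steroid receptors, and Stip1 (-1.46 and -2.02), which links HSP70 to HSP90, led them. Between fasted genotypes 8 of these 10 were lower in AAKO and 1, Unc45a, a myosin chaperone, was higher (0.72, standard error 0.07, adjusted p = 3.28e-10).

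Of 8 cytosolic J-domain proteins, 6 fell and 0 rose after fasting in CTRL (2 rose under each other scaling), and 4 fell and 3 rose in AAKO. Dnaja1 fell in both (-1.64 and -2.18). Dnajb4 was lower in AAKO fasted than in CTRL fasted mice (-1.57, standard error 0.14, adjusted p = 1.86e-10) and Dnajb5 higher (1.28, standard error 0.13, adjusted p = 2.59e-09). Of 8 BAG proteins and other HSP70 partners, 5 fell and 1 rose in CTRL, and 4 fell and 2 rose in AAKO. Bag3, an exchange factor that is itself an HSF1 target, fell in both (-1.46 and -1.41). Bag2, an inhibitor of the ubiquitin ligase that works with HSP70, fell after fasting in CTRL (-0.91) and rose in AAKO (1.70), a difference between genotypes of 2.61 (standard error 0.34, adjusted p = 6.89e-07). Bag5 rose in both (0.56 and 1.71).

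Of 8 further HSP70 and HSP110 genes, 4 fell and 1 rose after fasting in CTRL, and 4 fell and 2 rose in AAKO, with Hspa13 (-1.50 and -1.67), Hspa12b (-1.0 and -1.94) and Hspa4l (-0.90 and -1.29) the most lowered. Between fasted genotypes 2 of them were higher and 2 lower in AAKO (4 lower with quantile normalization, 3 in the authors' value table, and 1 higher and 2 lower with normexp), with Hspa2 at 1.36 and Hspa1l, the neighbour of Hspa1a on its other side, at 0.59 (standard error 0.17, adjusted p = 0.00487). Of 6 further small heat shock proteins that were tested, 0 were called after fasting in CTRL (1 fell without CTRL fasted replicate 2), and 2 rose and 2 fell in AAKO. Hspb8 was higher in AAKO both when fasted (1.09) and after CL316243 (1.04). Of the 4 genes for other heat shock factors and their binding protein, 1 was called after fasting in CTRL, Hsf4 (-0.56), and 2 with normexp. In AAKO 3 fell, Hsf2 (-1.15, standard error 0.13, adjusted p = 2.72e-09), Hsf5 (-1.12) and Hsbp1 (-0.34), and Hsf4 rose (0.30, adjusted p = 0.0393). Between fasted genotypes all 4 were called, Hsf4 higher in AAKO (0.68) and Hsf5 (-0.98), Hsf2 (-0.85) and Hsbp1 (-0.27) lower.

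Folding machines outside the cytosolic HSP70 system differed from one another. Of 10 mitochondrial chaperones and proteases, 4 rose and 2 fell after fasting in each genotype, with Clpx, the unfolding subunit of a mitochondrial protease, higher in both (1.90 and 0.92). In CTRL 5 rose with normexp and with quantile normalization, and 6 in the authors' value table. In AAKO 4 rose with normexp, and 6 with quantile normalization and in the authors' value table. Of 8 subunits of the TRiC chaperonin, 3 fell in CTRL (1 in the authors' value table), and 5 fell and 1 rose in AAKO (3 fell in that table). The lowest of these was Cct7 in CTRL at -0.45. Of 14 chaperones of the endoplasmic reticulum, 14 fell after fasting in CTRL and 14 in AAKO (medians -1.30 and -1.64). After CL316243, 11 of these 14 were higher in AAKO than in CTRL mice, where 13.0% of all genes were called higher. Their median was 0.82, against 0.03 over all genes, led by Creld2 (1.85, standard error 0.24, adjusted p = 7.41e-07). The lists were chosen with earlier results of these data known. This comparison also holds the CTRL CL316243 arrays known when the members were picked, so its values are not independent of the choice.

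**Figure D4:**
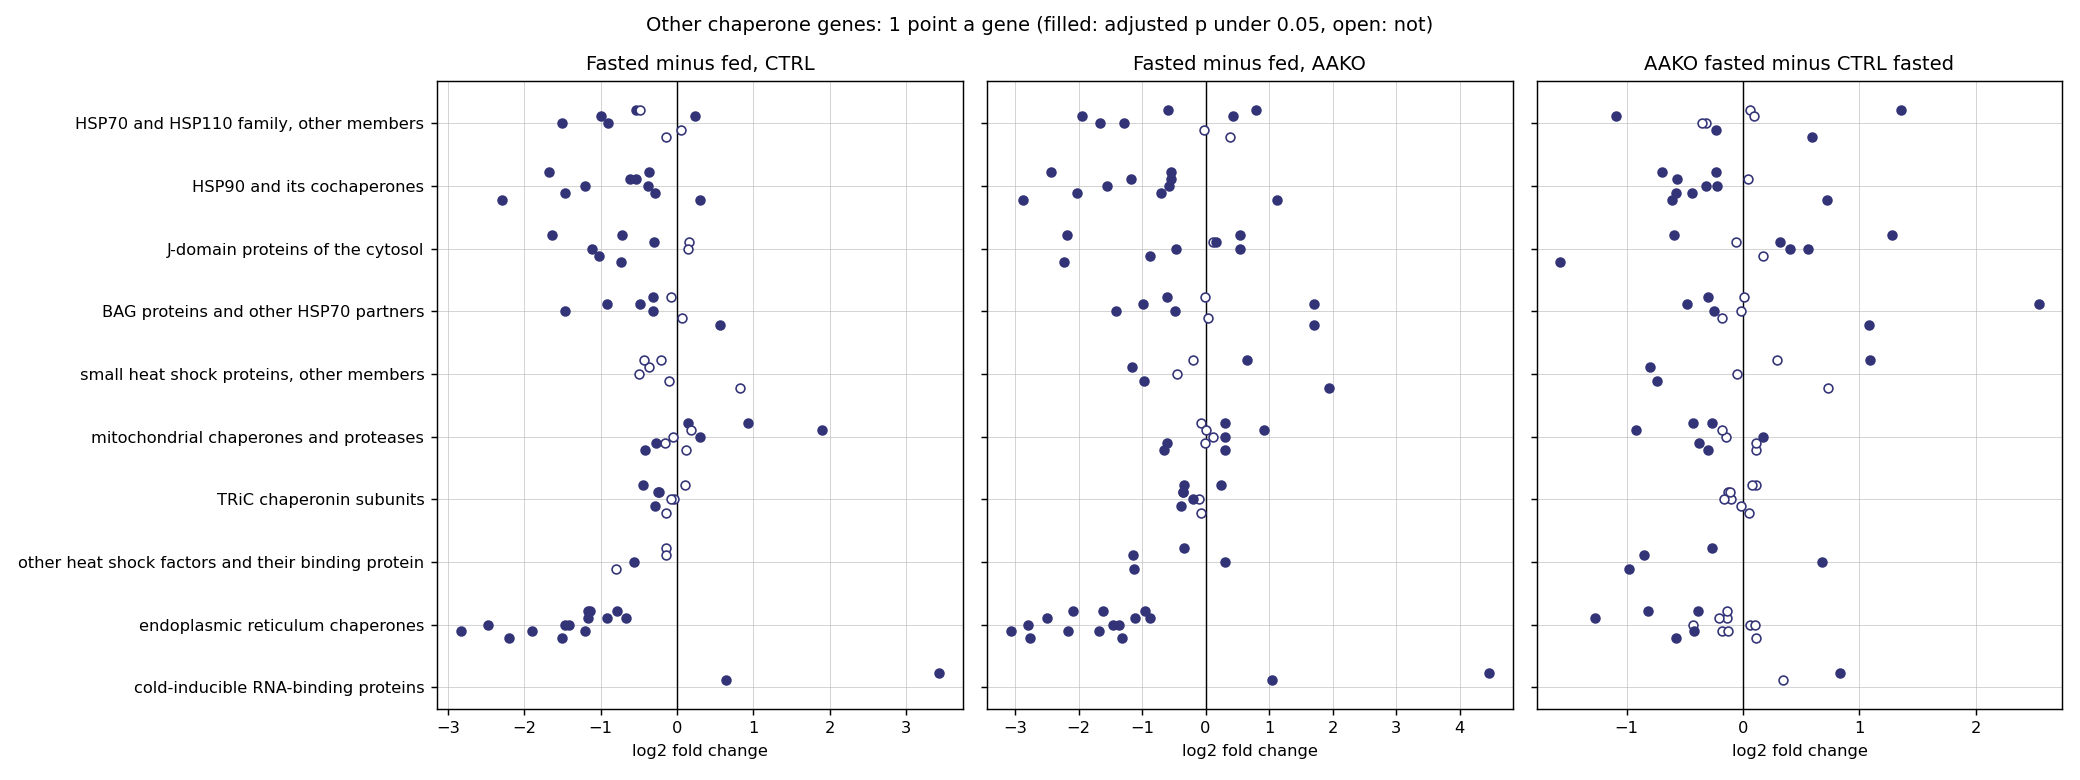
Log2 fold change (x axis) of every tested gene in the other chaperone lists and of 2 cold-inducible genes, for fasted minus fed in CTRL, fasted minus fed in AAKO, and AAKO minus CTRL in fasted mice; filled points are called at an adjusted p under 0.05. All 14 endoplasmic reticulum chaperones lie left of 0 in the first 2 panels, and Cirbp lies at 3.43 and 4.46.

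Cold-inducible RNA-binding proteins, whose transcripts rise as cells cool, were read beside the chaperones. Cirbp ran from 0.66 through 1.28 to 1.70 in CTRL fed and from 4.45 through 4.62 to 5.10 in CTRL fasted, and from 0.27 through 1.08 to 1.71 and from 5.37 through 5.54 to 5.61 in AAKO. Every fasted array lay above every fed one in each genotype, and both fasted groups above the CL316243 groups (1.86 to 2.38 in CTRL and 1.03 to 2.94 in AAKO). Cirbp rose by 3.43 in CTRL (standard error 0.23, adjusted p = 4.26e-13) and by 4.46 in AAKO (standard error 0.23, adjusted p = 2.18e-16) after fasting, and Rbm3 by 0.64 and 1.05. After CL316243 the genes parted in CTRL mice. Cirbp lay above its CTRL fed range, and Rbm3, from 2.57 to 3.25, below its own (3.29 to 3.90). In AAKO both genes overlapped their fed ranges, with Rbm3 from 2.94 to 3.99 against 3.23 to 3.83. Body temperature is not given in the sources used here, and the part it has in the member values was not tested.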

How the data were processed

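Intensities were used as deposited in the authors' scanner files, which per the file headers hold background-subtracted Agilent Feature Extraction signals (version 10.10.1.1 in the submitters' processing notes). The log2 of each signal was taken, 2701 outlier-marked spots (0.127%) were left out, spots of a probe were averaged, and the 75th percentile of the array was subtracted. Probes were named through RefSeq accessions (32994 named, 1535 symbols changed), and the brightest probe stood for a gene. Genes well above background on at least 5 of 6 arrays of a group were kept (24096). One limma 3.58.1 fit in R 4.3.3 held 6 group means and wash batch, with Benjamini-Hochberg adjustment over all genes tested, two-sided, threshold 0.05. The fit was tested on simulated data.

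The authors' deposited value table holds log2 values of 36898 probes. Each of its 36 columns correlated best with the array of its own sample (r from 0.99881 to 0.99981). Column medians were identical within a group and ran from 6.88 to 7.01 between groups, and how it was normalized is not given in the sources used here. It served as an alternative, beside normexp correction (offset 50), quantile normalization, other filters, probes and covariates, the replicate block, single wash batches and leaving out each array. The number of arrays limits the precision.

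The members and lists were chosen with earlier results of these data known. All members were to be named, with at most 3 called genes of the largest change for each other list and comparison, and the 5 genes most like Hspa1a, Hspa8 and Hspd1. Comparisons of CL316243 with fed CTRL mice, and the genotype difference built on it, carry no test, nor do Hspa1a in other comparisons with CTRL CL316243 arrays and the pairs of neighbouring genes. The planned fit and its alternatives counted Hspa1a there, and the counts in the closing section hold it.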

Additional observations from a re-analysis of the deposited data

Results flagged for a closer look

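Single arrays stood away from their group in 3 of 60 member groups, where chance gives about 1 in 20. Hspa1b in AAKO fed replicate 4 was at 4.39, with the next array at 3.64. On the same array Dnajb1 was at 5.51, with the next at 4.96. Hsf1 in CTRL fasted replicate 2 was at 2.13, with the next at 1.66, and this array also stood apart on the first principal component.

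The effect of fasting differed between genotypes, by a test of the difference in limma, for Hspa1a (3.77, adjusted p = 1.93e-06), Hsf1 (0.59, adjusted p = 0.000606), Hspe1 (0.42, adjusted p = 0.0153) and Hspa8 (-0.65, adjusted p = 0.00179). This test holds CTRL fed arrays known when the members were picked, so its Hspa1a p-value is not independent of that choice. The genotype difference between fasted and CL316243 mice differed for Hsf1 (0.47, adjusted p = 0.00543) and Hspa8 (-0.89, adjusted p = 6.06e-05). For Hspa1a it was 2.22, a description only, since it holds the CTRL CL316243 arrays known when the members were picked.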

How the results depend on the processing

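Of 100 tested member results 51 were called, and 1251 of 1308 alternative values of these were still called in the same direction, with 0 reversed. Over all genes the share called ran from 0.0789% to 63.6% between these comparisons, so nothing about the members is read from the 51. The 100 hold Hspa1a results on CTRL CL316243 arrays, which are given above with no test. The count of members called between genotypes after CL316243 (1, Hspa1a, on arrays known when it was picked) was 0 with no filter on dim probes, with normexp and in each wash batch alone, and 0 to 2 when 1 array was left out. Nothing about Hspa1a is read from this count. Within wash batch 1 the count fell from 5 to 3 between fasted genotypes, from 8 to 4 for fasted against CL316243 in AAKO, and from 4 to 2 for the genotype difference between fasted and fed mice. Within wash batch 2 it fell from 8 to 5 for CL316243 against fed in AAKO and, with Hspa1a among the 3, from 3 to 1 for the genotype difference between fasted and CL316243 mice. These fits hold about 3 arrays a group. For fasted against CL316243 in CTRL the count rose from 4 to 5 with normexp, and to 6 with quantile normalization and in the authors' value table. Leaving out 1 array gave 5 to 6 between fasted genotypes, 0 to 0 between fed genotypes, 9 to 10 and 8 to 8 for fasting in CTRL and AAKO, 8 to 9 for CL316243 in AAKO, 4 to 5 and 7 to 8 for fasted against CL316243 in CTRL and AAKO, and 4 to 4 and 3 to 4 for the differences between genotypes.

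Over all genes, the authors' value table moved the share of called genes that were higher from 45.0% to 56.1% for fasting in CTRL, from 48.0% to 59.8% and from 43.2% to 58.0% for fasted against CL316243 in CTRL and AAKO (32.7% with normexp), from 52.8% to 42.3% between genotypes after CL316243, and from 41.9% to 54.8% for the genotype difference between fasted and CL316243 mice. It moved the median of all genes from -0.10 to 0.01 for fasting in AAKO and from -0.08 to 0.05 for fasted against CL316243 in AAKO. Genes called between fed genotypes (19) numbered 29 with normexp, 3 with only the groups compared, and 1 and 0 within wash batches. Those called between genotypes after CL316243 (5929) numbered 2968 and 1514 within wash batches. The cause was not tested.

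With the replicate number as a block beside wash batch, the members called were 0, 5 and 1 between fed, fasted and CL316243 genotypes (the 1 is Hspa1a, given above with no test) and 10 and 8 for fasting in CTRL and AAKO, as without it, and no member call changed. Arrays with the same number in different groups had a median correlation of 0 (from -0.20 to 0.26 over 90 pairs), and 5 of 36 arrays correlated best with their own number, so the numbers were not taken as pairs.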
